A study of Mus musculus with 12 samples.

Results

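The guanylate-binding proteins (GBPs) and the immunity-related GTPases (IRGs) were followed here through 10 mouse genes, chosen by name: Gbp2, Gbp3, Gbp5, Gbp7, Gbp9, Irgm1, Irgm2, Igtp, Iigp1 and Ifi47. They are 10 of the 54532 genes of the deposited table, and all 10 were among the 11335 genes tested, those with at least 1 FPKM (fragments per kilobase of gene, scaled per library) in at least 3 of the 12 libraries. RNA sequencing had been run on macrophages grown from the marrow of WT mice and on osteoclasts, the multinucleated cells that resorb bone, obtained from such macrophages. All cells received 2% CMG, a source of the macrophage growth factor M-CSF. The osteoclasts also received RANKL, the cytokine that drives osteoclast formation, at 100 ng/mL according to the sample source and at 50 to 100 ng/mL according to the growth protocol. On day 5 some cultures of each kind were given lipopolysaccharide (LPS, from the outer membrane of gram-negative bacteria) at 100 ng/mL for 3 h. This gave 4 groups of 3 libraries each: macrophages without LPS, macrophages with LPS, osteoclasts without LPS and osteoclasts with LPS. The labels give neither strain nor age nor sex, and do not say how many mice or cultures the 3 libraries of a group came from, so p-values measure only the spread between these libraries, which may be technical.

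GBPs are large GTPases and IRGs smaller ones, and both are best known as interferon-induced defences of the cell interior. They assemble on the membranes of vacuoles that hold parasites or bacteria, and GBPs also coat bacteria free in the cytosol and help expose their LPS to caspase-11, the cytosolic LPS receptor. Among IRGs, the regulatory IRGM proteins (Irgm1, Irgm2 and Igtp, also known as Irgm3) sit on the cell's own membranes and hold the effector IRGs (such as Iigp1 or Irga6, and Ifi47 or Irgd) in check until a pathogen vacuole appears. In macrophages, LPS acts through TLR4, which induces interferon beta, and secreted interferon beta in turn acts through its receptor to switch these genes on.

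The 12 libraries held between 15651736 and 20281414 assigned reads, counted back from the FPKM steps, and between 9728 and 10301 genes at 1 FPKM or more. Osteoclast identity was checked on 10 osteoclast markers, among them Ctsk, Acp5 and Calcr, whose summed level was 29220 to 32220 FPKM in the 6 osteoclast libraries and 16.3 to 29.0 FPKM in the 6 macrophage libraries. The summed level of 10 macrophage markers was 2470 to 2557 FPKM in macrophages without LPS, 3821 to 3892 with LPS, 1759 to 1845 in osteoclasts without LPS and 1777 to 1855 with LPS, where Cd68 and Csf1r made up most of it. Within osteoclasts 3 of the 10 were called higher with LPS (limma, adjusted p under 0.05), beside 11.1% of all genes tested. Adgre1 rose from a mean of 33.1 to 62.2 FPKM, Cd14 from 16.2 to 45.3, and Fcgr1 from 0.366 to 0.523 FPKM over the untreated libraries to 0.927 to 1.88 FPKM with LPS. The other 7 were not called: Mrc1 and C5ar1 had higher means with LPS, and Cx3cr1, Mertk, Itgam, Csf1r and Cd68 lower ones. Osteoclasts also carried the larger share of mitochondrial reads, 5.16% to 6.18% against 1.27% to 1.62% in macrophages. The 7 stromal markers summed to 26.0 to 36.6 FPKM in macrophages, 0.211 to 0.386 FPKM in osteoclasts without LPS and 0.414 to 1.01 FPKM in osteoclasts with LPS, with Lum at 0 reads in every library. The 6 dendritic cell markers summed to 0.259 to 0.280 FPKM in macrophages without LPS and 5.62 to 6.37 with LPS, most of it Xcr1, and to 0.611 to 0.692 and 1.34 to 1.84 FPKM in osteoclasts. The 7 neutrophil and precursor markers summed to at most 8.03 FPKM in macrophages and 1.79 FPKM in osteoclasts, and the 4 B cell markers reached at most 0.134 FPKM each. What part other cells had in the LPS effects on the 10 genes was not tested. Of the T and NK cell markers, Cd3d, Cd8a and Ncr1 were at 0 reads in all 12 libraries, while Trac was at 2.92 to 3.96 FPKM in the osteoclasts and at most 0.182 FPKM in the macrophages. Ifng, the gene for interferon gamma, was at 0 reads in all 12. A count of 0 allows up to 3 reads in a library.

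The promoters of 8 of the 10 members were found in RefSeq (GRCm38.p6), with 9 start sites in all. For each of the 8, 1 start is shown, since letters matching motifs of interferon-activated factors stand close to it in most. The 250 bases before each start were searched on both strands for 3 motifs: GAAANNGAAA, the core of the interferon-stimulated response element (ISRE) bound by IRF factors such as IRF1 and IRF9; TTCNNNGAA, the gamma-activated site (GAS) of interferon-induced promoters; and GGGANTTTCC, a kB site bound by NF-kB. Stretches are written 5′ to 3′ on the gene's own strand from 100 bases before the RefSeq start, or from 5 bases before the outermost match where that is further out, to 10 bases after the last match, and capitals mark the motif matches.
Gbp2, chr3:142620563-142620623, plus strand: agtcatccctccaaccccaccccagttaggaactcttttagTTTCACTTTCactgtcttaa
Gbp3, chr3:142559944-142560024, plus strand: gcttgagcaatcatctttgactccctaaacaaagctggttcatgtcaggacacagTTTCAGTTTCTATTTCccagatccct
Gbp5, chr3:142496684-142496900, plus strand: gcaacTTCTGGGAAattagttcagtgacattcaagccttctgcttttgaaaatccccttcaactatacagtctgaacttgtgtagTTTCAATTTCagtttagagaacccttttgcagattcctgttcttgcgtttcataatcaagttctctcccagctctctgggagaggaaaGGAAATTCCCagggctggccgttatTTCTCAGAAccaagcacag
Gbp7, chr3:142530225-142530302, plus strand: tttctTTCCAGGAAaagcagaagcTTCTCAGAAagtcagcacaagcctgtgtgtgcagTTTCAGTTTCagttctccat
Irgm1, chr11:48871425-48871520, minus strand: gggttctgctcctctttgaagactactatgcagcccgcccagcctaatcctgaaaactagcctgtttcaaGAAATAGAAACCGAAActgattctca
Irgm2, chr11:58214877-58214932, plus strand: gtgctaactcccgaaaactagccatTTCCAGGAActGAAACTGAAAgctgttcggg
Igtp, chr11:58199456-58199541, plus strand: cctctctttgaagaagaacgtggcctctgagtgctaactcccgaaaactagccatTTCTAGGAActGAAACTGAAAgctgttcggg
Ifi47, chr11:49076487-49076586, plus strand, with no match: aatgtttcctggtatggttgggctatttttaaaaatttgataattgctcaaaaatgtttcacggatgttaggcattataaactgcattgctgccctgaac

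The ISRE core was present in 7 of the 8 members (Gbp2, Gbp3, Gbp5, Gbp7, Irgm1, Irgm2 and Igtp), against 3.46% of the 27025 genes with a window in the RefSeq table. By window it was in 7 of 9, against 2.98% of 32851, since the other start of Gbp3 (chr3:142560256-142560355, not shown) had no match. In 6 of these 7 a match began within 100 bases of the start, and in Gbp5 it began 165 bases before it. A GAS match was present in 4 of the 8 (Gbp5, Gbp7, Irgm2 and Igtp), against 8.13% of genes, and a kB match in 1 of the 8 (Gbp5), against 0.414%. Gbp5 was the only 1 of the 8 with all 3 motifs. Overlapping pairs of ISRE cores stood in Gbp3 and Irgm1. In Irgm2 and Igtp, which lie next to each other on chromosome 11, the GAS match was followed by the ISRE core after 2 bases, and the same spacing of 2 bases was found in Tgtp2, an IRG outside the 10. Elsewhere, where the ISRE core followed a GAS match, the spacing was 6 bases in Gm12250, another such IRG, 25 and 44 in Gbp7 and 71 in Gbp5. The Igtp and Irgm2 windows matched at 134 of 220 bases, or 60.9%, when slid by 30 bases against each other. In GENCODE M21 the Gbp2 match lay inside an exon of a coding Gbp2 transcript, and the Irgm1 matches inside an exon of a noncoding Irgm1 transcript. A match is a description of letters and shows no binding, and the absence of these letters from the Ifi47 window says nothing about the factors.

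The GBP genes lie in clusters. On chromosome 3 the order along the plus strand was Gbp5 (ENSMUSG00000105504, GENCODE M21 on GRCm38, 142493978 to 142522344), Gbp7 (ENSMUSG00000040253, 142530342 to 142550149), Gbp3 (ENSMUSG00000028268, 142560026 to 142573209), Gbp2b and Gbp2 (ENSMUSG00000028270, 142620602 to 142638008). Gbp9 (ENSMUSG00000029298) lies on the minus strand of chromosome 5, 105077630 to 105139539, with Gbp4 and Gbp8. Irgm1 (ENSMUSG00000046879, 48861968 to 48871683, minus strand), Ifi47 (ENSMUSG00000078920, 49076587 to 49096974), Igtp (ENSMUSG00000078853, 58199556 to 58207591) and Irgm2 (ENSMUSG00000069874, 58199618 to 58222782) are on chromosome 11, and Iigp1 (ENSMUSG00000054072, 60376027 to 60392634) on chromosome 18. The annotated spans of Igtp and Irgm2 overlap on the same strand and their exons share 162 bases, 8.01% of the Igtp exon bases and 4.39% of those of Irgm2, so their reads could not be fully told apart. Gbp7 shares 637 bases, 11.3% of its exon bases, with the pseudogene Gm43802, which was listed at 0 FPKM. Of the 75-base windows of a member's transcripts, the share also present in transcripts of another gene ran from 0% for Irgm1 and Iigp1 to 11.3% for Gbp7, and the Gbp7 and Igtp values are the least certain in this respect. Ifi47 shares 111 exon bases with Olfr56 on the same strand and 106 with Gm12188 on the opposite strand, and whether counting used strand is not given in the sources used here.

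Without LPS the GBPs were low in both cell types, and with LPS Gbp5 and Gbp2 became the highest of the 10 members. Gbp5, a prenylated GBP that promotes assembly of the NLRP3 inflammasome, was at 0.163, 0.109 and 0.169 FPKM in macrophages without LPS and at 451, 403 and 433 FPKM with LPS. In osteoclasts it was at 0.139, 0.267 and 0.310 FPKM without LPS and at 21.3, 13.9 and 24.4 FPKM with LPS. All libraries with LPS lay above all libraries without it, and every LPS-treated osteoclast library lay below every LPS-treated macrophage library, while the untreated groups overlapped. The mean rose 2924-fold in macrophages, a log2 difference of 8.55 (SE 0.15) on the log2(FPKM + 1) scale, with an adjusted p of 3.66e-13 in limma, adjusted by Benjamini-Hochberg over all genes tested. In osteoclasts it rose 83.2-fold, a log2 difference of 4.04 (SE 0.15, adjusted p 4.5e-09).

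Gbp2, a prenylated GBP that gathers on pathogen vacuoles, was at 1.47, 1.42 and 1.91 FPKM in macrophages without LPS and at 436, 391 and 429 FPKM with LPS. Osteoclasts had 0.388, 0.141 and 0.257 FPKM without LPS, from 6 to 18 reads a library, and 22.9, 14.4 and 28.6 FPKM with LPS. The 4 groups did not overlap, with untreated osteoclasts lowest. The mean rose 261-fold in macrophages (log2 difference 7.34, SE 0.18, adjusted p 6.14e-12) and 83.8-fold in osteoclasts (log2 difference 4.14, SE 0.18, adjusted p 2.13e-08). With voom on the recovered reads the osteoclast values of Gbp2 and Gbp5 were 6.38 and 6.42, on a scale without the added 1 FPKM.

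Gbp3, which lies between Gbp7 and Gbp2b, was at 1.00, 0.586 and 0.894 FPKM in untreated macrophages and at 193, 158 and 176 FPKM after LPS. In osteoclasts the values were 0.763, 0.598 and 0.559 FPKM without LPS and 10.8, 7.93 and 13.9 FPKM with LPS. The untreated groups overlapped and both LPS groups stood above them. The mean rose 212-fold in macrophages (log2 difference 6.60, SE 0.16, adjusted p 3.78e-12) and 17.0-fold in osteoclasts (log2 difference 2.83, SE 0.16, adjusted p 1.14e-07).

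Gbp7, a GBP without a prenylation motif that is known to act with the phagocyte oxidase, was the member with the highest untreated level in osteoclasts. Its levels were 1.10, 0.977 and 1.03 FPKM in untreated macrophages and 61.2, 46.8 and 53.8 FPKM with LPS. In osteoclasts they were 4.61, 3.68 and 4.66 FPKM without LPS and 10.2, 8.11 and 11.7 FPKM with LPS. No groups overlapped, and untreated osteoclasts stood above untreated macrophages. The mean rose 52.1-fold in macrophages (log2 difference 4.75, SE 0.12, adjusted p 8.58e-12) and 2.32-fold in osteoclasts (log2 difference 1.04, SE 0.12, adjusted p 9.14e-05), the smallest fold of the 10 there.

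Gbp9, of the chromosome 5 cluster, was at 2.12, 2.10 and 2.08 FPKM in untreated macrophages and at 51.5, 32.9 and 39.8 FPKM with LPS. In osteoclasts it was at 0.293, 0.172 and 0.148 FPKM without LPS, from 13 to 28 reads, and at 1.27, 1.02 and 2.51 FPKM with LPS. Gbp9 was the 1 member for which LPS-treated osteoclasts did not clear the level of untreated macrophages: those groups overlapped through 1 osteoclast library. Its mean rose 19.7-fold in macrophages (log2 difference 3.75, SE 0.19, adjusted p 3.18e-09) and 7.83-fold in osteoclasts (log2 difference 1.07, SE 0.19, adjusted p 0.00188). At such low levels the added 1 FPKM shrinks the difference, and with 0.1 added the osteoclast value was 2.41, with TPM 1.70 and with voom on recovered reads 2.89.

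The regulatory IRGs were all near 5 FPKM or above in untreated macrophages, as was the effector Ifi47. Irgm1, which is needed for mitochondrial and lysosomal quality control as well as defence, was at 6.20, 5.72 and 6.61 FPKM in untreated macrophages and at 217, 209 and 221 FPKM with LPS. In osteoclasts it was at 2.20, 2.12 and 2.08 FPKM without LPS and at 16.1, 11.0 and 18.1 FPKM with LPS. The 4 groups did not overlap. The mean rose 34.9-fold in macrophages (log2 difference 4.92, SE 0.13, adjusted p 9.37e-12) and 7.06-fold in osteoclasts (log2 difference 2.33, SE 0.13, adjusted p 1.24e-07).

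Irgm2, known to restrain caspase-11 responses to LPS in the cytosol, was at 5.44, 4.98 and 5.57 FPKM in untreated macrophages and at 205, 194 and 198 FPKM with LPS. Osteoclasts had 0.999, 0.978 and 1.28 FPKM without LPS and 14.9, 11.0 and 19.4 FPKM with LPS. Its neighbour Igtp, found on the endoplasmic reticulum and on lipid droplets, was at 4.97, 6.18 and 6.24 FPKM in untreated macrophages and at 265, 218 and 247 FPKM with LPS. For both genes the 4 groups stood apart in the order macrophages with LPS, osteoclasts with LPS, macrophages without, osteoclasts without. Igtp in osteoclasts was at 1.26, 0.966 and 1.25 FPKM without LPS and at 15.3, 10.4 and 19.0 FPKM with LPS. Irgm2 rose 37.3-fold in macrophages (log2 difference 4.98, SE 0.14, adjusted p 2.08e-11) and 13.9-fold in osteoclasts (log2 difference 2.92, SE 0.14, adjusted p 4.78e-08). Igtp rose 42.0-fold in macrophages (log2 difference 5.17, SE 0.17, adjusted p 5.3e-11) and 12.9-fold in osteoclasts (log2 difference 2.85, SE 0.17, adjusted p 1.84e-07).

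The effector Iigp1, which builds up on the vacuole of Toxoplasma, was almost silent without LPS. It was at 0.138, 0.177 and 0.201 FPKM in untreated macrophages, from 10 to 14 reads, and at 197, 152 and 182 FPKM with LPS. Untreated osteoclasts had 0, 0 and 2 reads, the last equal to 0.0377 FPKM, and LPS-treated osteoclasts 2.88, 2.18 and 4.49 FPKM, from 105 to 256 reads. No groups overlapped, although 2 untreated osteoclast libraries held none of its reads. Its mean rose 1027-fold in macrophages (log2 difference 7.24, SE 0.16, adjusted p 1.95e-12). In osteoclasts the log2 difference was 2.01 (SE 0.16, adjusted p 2.62e-06), and the pooled reads, 539 against 2, gave a 264-fold rise with a 95% interval of 72.7 to 2184 that covers counting error only. The log2 difference depended on the scale: it was 4.82 with 0.1 FPKM added, 3.19 as TPM and 7.64 with voom on the recovered reads, called each time.

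Ifi47, the other effector, was at 5.58, 6.12 and 6.17 FPKM in untreated macrophages and at 207, 186 and 204 FPKM with LPS. In osteoclasts it was at 0.833, 0.885 and 0.833 FPKM without LPS and at 10.4, 8.24 and 13.4 FPKM with LPS. The groups stood apart in the same order as for the regulatory genes. The mean rose 33.4-fold in macrophages (log2 difference 4.84, SE 0.12, adjusted p 5.71e-12) and 12.6-fold in osteoclasts (log2 difference 2.64, SE 0.12, adjusted p 2.68e-08).

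**Figure D1:**
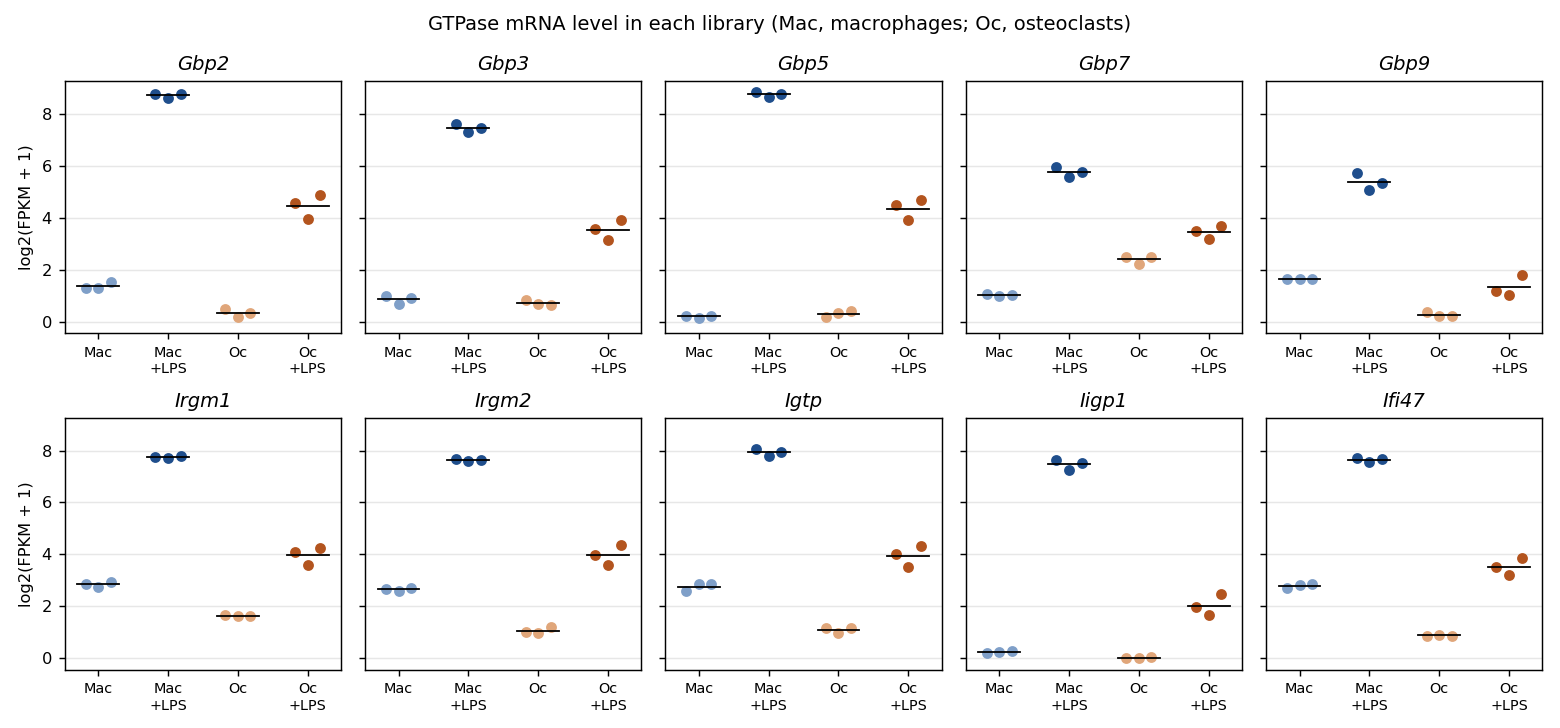
FPKM of each of the 10 members in the 12 libraries, plotted as log2(FPKM + 1) on the vertical axis, with 1 point per library and a bar at the mean of each group of 3. Macrophages with LPS stand highest for every member, and osteoclasts with LPS stand below them and, except for Gbp9, above both untreated groups.

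LPS thus raised all 10 members in each cell type, on FPKM as deposited. In macrophages all 10 were called higher, against a background of 36.8% of all genes tested, and the members' median log2 difference was 5.08 beside 0.02 for all genes. In osteoclasts all 10 were again called higher, against a background of 11.1%, with a median of 2.73 beside 0.01. Ranked from the highest log2 difference over the 11335 genes, the members stood between 10 (Gbp5) and 173 (Gbp9) in macrophages and between 19 (Gbp2) and 238 (Gbp7) in osteoclasts. The scaling bears on how all genes divide: 52.6% of all calls in macrophages were higher on the deposited scale, 18.5% on the TPM scale and 37.0% with quantile-normalized values, and in osteoclasts the shares were 62.8%, 43.5% and 38.5%. The TPM scale shifted the median of all genes by -0.58 in macrophages and by -0.06 in osteoclasts, and all 10 members were still called higher in both cell types under each scaling.

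**Figure D2:**
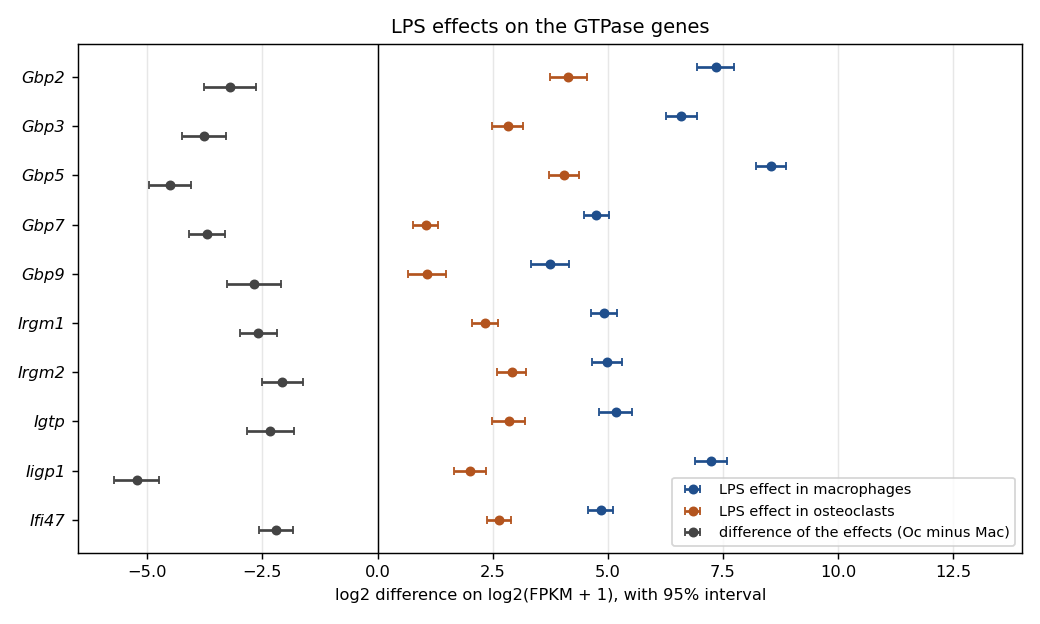
LPS effect on each of the 10 members in macrophages and in osteoclasts, as the log2 difference on the log2(FPKM + 1) scale with its 95% interval. A further series shows the osteoclast effect minus the macrophage effect. Every LPS effect is above 0, and every difference of the effects is below 0. Each macrophage value, from 3.75 for Gbp9 to 8.55 for Gbp5, is larger than the osteoclast value of the same gene.

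Before LPS, osteoclasts had less of most members than macrophages. Of the 10 members, 6 were called lower in untreated osteoclasts, against a background of 39% of genes, and 1 was called higher, against a background of 38.8%, so these shares are to be read beside large changes across all genes. The members called lower were Ifi47 (log2 difference -1.91, adjusted p 1.85e-08), Igtp (-1.65, 1.59e-06), Irgm2 (-1.60, 5.42e-07), Gbp9 (-1.37, 2.8e-05), Irgm1 (-1.19, 3.22e-06) and Gbp2 (-1.04, 0.000231). Their means were 2.90 times (Irgm1) to 10.3 times (Gbp9) as high in macrophages as in osteoclasts. The member called higher was Gbp7, 4.17 times as high in osteoclasts (log2 difference 1.38, adjusted p 5.37e-07). Thus, of the 10, the 4 IRGs with a level above 1 FPKM in untreated macrophages were lower in osteoclasts, whereas the neighbours Gbp5, Gbp7 and Gbp3 on chromosome 3 were not called lower.

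For 3 members the untreated difference did not pass the test. The log2 differences were 0.11 for Gbp5 (95% interval -0.22 to 0.43, adjusted p 0.517), -0.15 for Gbp3 (-0.49 to 0.19, adjusted p 0.39) and -0.21 for Iigp1 (-0.56 to 0.13, adjusted p 0.238). These rest on levels near or below 1 FPKM, and the scale decides some of them. Iigp1 was called lower in osteoclasts with 0.1 FPKM added in place of 1 (-1.28, adjusted p 0.000275), on the TPM scale (-0.68, 0.00486), with only the untreated groups in the fit (-0.21, 0.00735) and on recovered reads with voom (-3.50, 0.0248). Gbp3 was called lower on the TPM scale (-0.54, adjusted p 0.0175), while quantile normalization gave 0.09 with an adjusted p of 0.611. Over all genes 49.9% of the calls were higher in osteoclasts on the deposited scale and 29.9% on the TPM scale, which shifted the median of all genes by -0.38. The called values of Gbp2 and Gbp9 moved with the added constant, to -2.28 and -2.88 with 0.1 FPKM, and that of Irgm1 to -1.79 on the TPM scale.

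After LPS, all 10 members were lower in osteoclasts than in macrophages, against a background of 43% of genes called lower. The log2 differences ran from -2.32 for Gbp7 to -5.44 for Iigp1, with a median of -4.01 beside -0.02 for all genes. As a share of the macrophage mean, the osteoclast mean was 18.6% for Gbp7, between 3.86% (Gbp9) and 7.58% (Irgm2) for 8 others, and 1.80% for Iigp1, with a median of 5.75%. Without LPS the same share had ranged from 7.30% for Iigp1 through 77.3% for Gbp3 and 163% for Gbp5 to 417% for Gbp7, with a median of 20.2%. The Iigp1 share without LPS rests on 2 osteoclast reads, both in replicate 3. The members therefore stood closer together after LPS than before it, Gbp7 and Iigp1 apart. Leaving out each LPS-treated osteoclast library in turn moved the median share only between 4.98% and 6.58%.

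**Figure D3:**
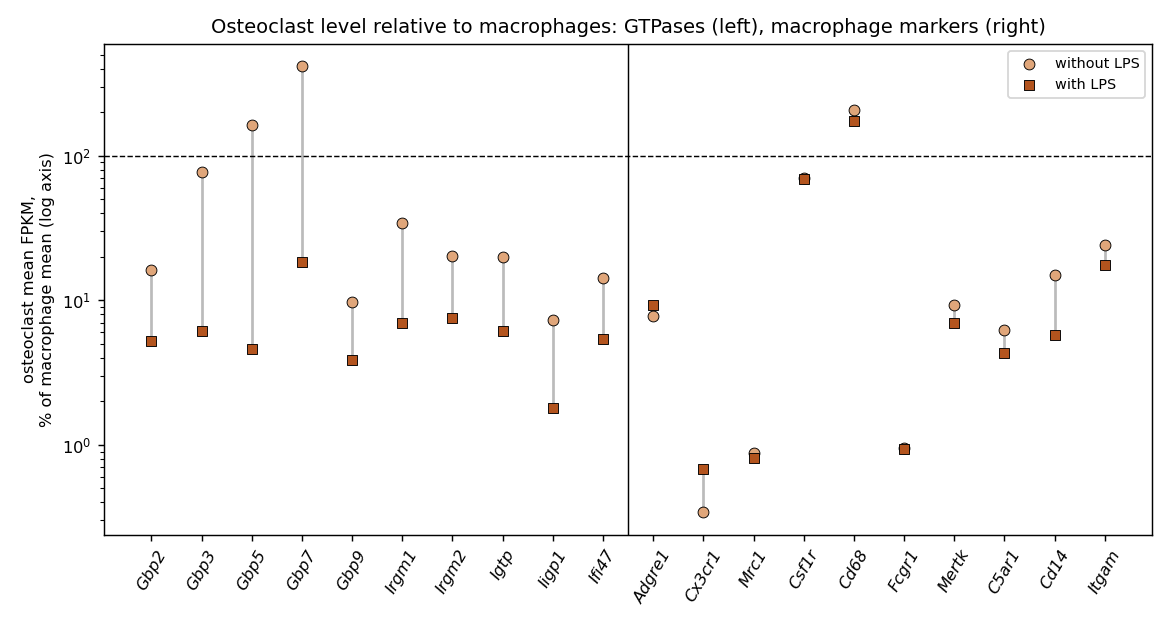
Mean FPKM in osteoclasts as a percentage of the mean in macrophages, on a log axis, for each of the 10 members (left) and 10 macrophage markers (right), without and with LPS. The members' points without LPS spread from 7.30% (Iigp1, from 2 osteoclast reads in all) to 417%, and those with LPS lie between 1.80% and 18.6%.

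The bulk libraries do not tell fewer cells of a type from less RNA per cell. Over 10 macrophage markers the osteoclast mean as a share of the macrophage mean had a median of 8.48% without LPS (from 0.342% for Cx3cr1 to 209% for Cd68) and 6.41% with LPS (from 0.679% for Cx3cr1 to 175% for Cd68). With LPS, Mrc1 was at 0.814%, Fcgr1 at 0.931% and Adgre1 at 9.28%, and the members at 1.80% to 18.6%. Cd68 and Csf1r, at 175% and 69.7%, are also expressed by osteoclasts. What part residual macrophages had in the members' osteoclast levels was not tested.

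The LPS effect itself differed between the cell types. The interaction, the log2 difference by LPS in osteoclasts minus that in macrophages, was below 0 and called for all 10 members, against a background of 30% of genes, with a median of -2.94 beside -0.01 for all genes. It was furthest from 0 for Iigp1 (-5.23, SE 0.22, adjusted p 2.45e-09) and Gbp5 (-4.51, SE 0.21, adjusted p 5.25e-09), followed by Gbp3 (-3.77), Gbp7 (-3.70), Gbp2 (-3.20), Gbp9 (-2.68), Irgm1 (-2.59), Igtp (-2.32), Ifi47 (-2.21) and Irgm2 (-2.06). For all genes, 47.0% of the interaction calls were above 0 on the deposited scale, 82.0% on the TPM scale and 59.9% with quantile-normalized values, while all 10 members were below 0 in each. On the TPM scale, which shifted the median of all genes by 0.53, the value moved to -2.08 for Gbp2, -1.78 for Gbp9, -1.45 for Igtp, -1.24 for Ifi47 and -1.18 for Irgm2, all still called.

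Because 1 FPKM was added before the logarithm, the interaction was set beside plain ratios of the means. As a log2 ratio of fold changes it was -5.14 for Gbp5, -4.49 for Gbp7, -3.64 for Gbp3, -2.31 for Irgm1, -2.02 for Iigp1, -1.71 for Igtp, -1.64 for Gbp2, -1.42 for Irgm2, -1.41 for Ifi47 and -1.33 for Gbp9. All 10 thus kept the sign, and the order changed: Iigp1 moved from the lead to the fifth place, its reads in untreated osteoclasts being 2 in all. The 3 largest were Gbp5, Gbp7 and Gbp3, neighbours on chromosome 3. On this scale the interaction equals the log2 share of the macrophage mean with LPS minus that without, so the high untreated shares of these 3 genes enter it by construction. With voom on the recovered reads 7 of the 10 interactions were called, and Gbp2 (-1.65, adjusted p 0.102), Gbp9 (-1.37, adjusted p 0.103) and Iigp1 (-2.32, adjusted p 0.168) were not. Over all 11335 genes voom called 6094 interactions, 46.9% of them above 0.

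**Figure D4:**
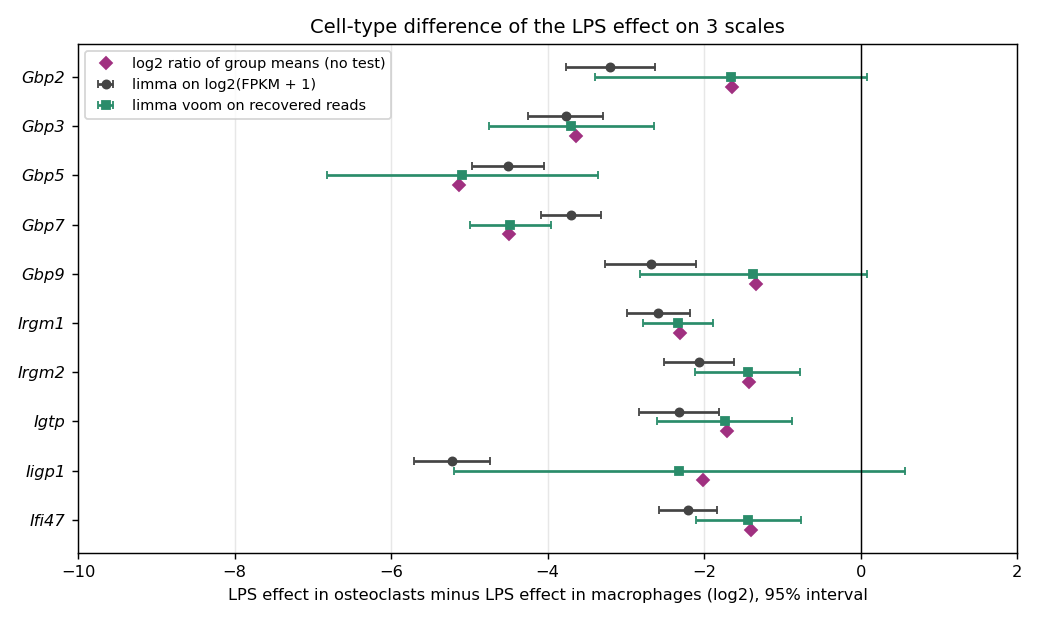
Interaction of LPS and cell type for each of the 10 members on 3 scales: log2(FPKM + 1), the log2 ratio of mean FPKM, and voom on recovered reads. All values are below 0, those of Gbp5, Gbp7 and Gbp3 are furthest from 0 on the ratio and voom scales, and that of Iigp1 moves from -5.23 to -2.02.

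Summed over the 10 members, the level was 29.1 ± 1.51 FPKM (SD, n = 3) in untreated macrophages, 2153 ± 149 with LPS, 10.9 ± 0.950 in untreated osteoclasts and 123 ± 33.8 with LPS. The 4 groups did not overlap. The makeup of this sum changed with LPS in macrophages: the 5 GBPs held 19.6% ± 1.25 of it without LPS and 52.0% ± 0.233 with LPS, and the 3 regulatory IRGs went from 59.4% to 30.6%. In osteoclasts the GBPs held 51.8% ± 2.21 without LPS, most of it Gbp7, and 52.1% ± 0.644 with LPS. The regulatory IRGs held 40.2% and 36.6% there, without and with LPS. The effector IRGs held 20.3% to 22.2% in the 3 untreated macrophage libraries and 17.0% to 17.7% in those with LPS, so their share was lower with LPS. In osteoclasts it was higher with LPS, at 7.25% to 9.03% without and 10.6% to 11.8% with it. So the LPS-treated cell types had GBPs at nearly the same share of a sum that differed in size.

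The order of the members per length also changed. In untreated macrophages it ran Irgm1, Ifi47, Igtp, Irgm2, Gbp9, Gbp2, Gbp7, Gbp3, Iigp1, Gbp5. The ranges of the first 4 overlapped from neighbour to neighbour, as did those of Gbp7 and Gbp3 and of Iigp1 and Gbp5. With LPS it ran Gbp5, Gbp2, Igtp, Irgm1, Irgm2, Ifi47, Iigp1, Gbp3, Gbp7, Gbp9, so the member with the lowest mean came to have the highest. Gbp5 and Gbp2 overlapped there, as did Igtp and Irgm1, Gbp7 and Gbp9, and Irgm2, Ifi47, Iigp1 and Gbp3 from neighbour to neighbour. In untreated osteoclasts Gbp7 stood clear at the top and Iigp1 at the bottom. In LPS-treated osteoclasts every neighbour in the order Gbp2, Gbp5, Irgm2, Irgm1, Igtp, Gbp3, Ifi47, Gbp7 overlapped the next, and Iigp1 and Gbp9 overlapped each other below them.

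The LPS-treated osteoclast libraries differed among themselves in the same way for all members. Replicate 2 was lowest for 10 of 10 members, at 63.6% to 81.0% of the group mean, and replicate 3 was highest for 10 of 10, at 117% to 157%. In LPS-treated macrophages replicate 2 was also lowest for 10 of 10 members, at 79.4% to 97.4% of the group mean, and replicate 1 was highest for 9 of 10. Untreated libraries showed no such order, with each library lowest for 1 to 6 members. In osteoclasts with LPS, Irf1 had the same order, at 109%, 78.6% and 112% of its mean in replicates 1 to 3, and Ifnb1 another, at 68.7%, 110% and 121%. Most macrophage markers shared the low replicate 2, and fewer the high replicate 3. Replicate 2 of the LPS-treated osteoclasts was lowest for 8 of 10 of them, at a median of 72.0% of the group mean over the 10. Replicate 3 was highest for 4 of 10, at a median of 111%, beside a median of 115% in replicate 1. Adgre1 was at 73.1, 42.5 and 70.9 FPKM in the 3 libraries, Mrc1 at 3.35, 1.62 and 3.41 and Fcgr1 at 1.68, 0.927 and 1.88, while Csf1r and Cd68 were highest in replicate 2. The stromal marker Col1a1 had the members' order at low depth, with 37, 10 and 50 reads, and Col1a2 had 36, 8 and 35 reads. In LPS-treated macrophages replicate 2 was lowest for 6 of the 10 markers, at a median of 98.7%. The part of residual macrophages or other cells in the spread of the members was not tested. Leaving out any 1 library changed no member's call in any comparison.

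**Figure D5:**
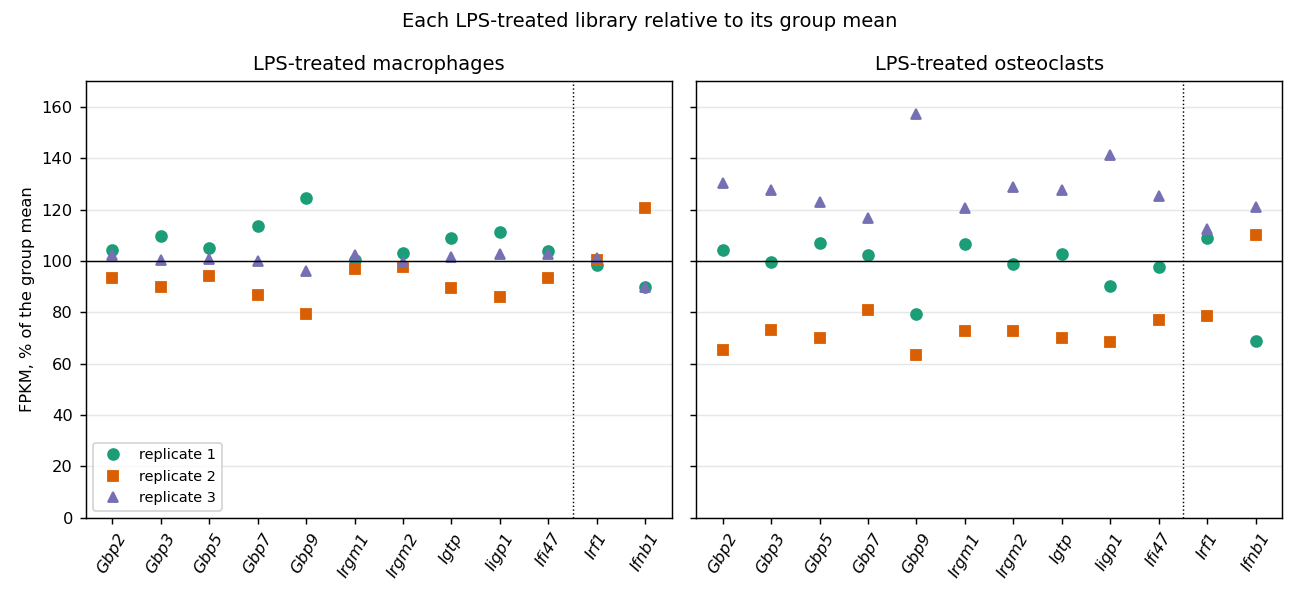
FPKM of each member in each LPS-treated library as a percentage of its group mean, for macrophages and osteoclasts, with Irf1 and Ifnb1 to the right of the dotted line. Replicate 2 lies lowest for all 10 members in both groups, and the spread is wider in osteoclasts, from 63.6% to 157%, than in macrophages, from 79.4% to 124%.

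Further genes of these GTPase families were listed beside the 10: GBPs, IRGs, among them the divergent Irgq and Irgc1, and 2 genes of the very large inducible GTPases, Gvin1 and Gm4070. Of these 18 further genes 14 passed the filter on low values, and LPS raised 14 of 14 in macrophages (median 2.70) and 11 of 14 in osteoclasts (median 0.58), beside 36.8% and 11.1% of all genes tested. Gm12250, also known as Irgb10, which targets bacterial membranes together with GBPs, rose by a log2 difference of 5.95 in macrophages and 3.72 in osteoclasts. Tgtp2, an effector IRG also known as Irgb6, rose by 5.81 and 2.11. The interaction was below 0 and called for 14 of 14, beside 30% of all genes. Gbp4, Gbp11, Tgtp1, Gvin1 and F830016B08Rik reached 1 FPKM only in LPS-treated macrophages, and Gbp6 and Gm4070 besides only in replicate 3 of LPS-treated osteoclasts. Their passing the filter itself favoured a rise in macrophages and an interaction below 0, so the 14 of 14 are not independent of it. The 3 not called in osteoclasts were Gbp11 (0.03), F830016B08Rik (0.06) and Irgq (0.08). Without LPS 1 of the 14 was higher in osteoclasts and 8 were lower, beside 38.8% and 39% of all genes, and the higher 1 was Irgq, at 6.60 ± 0.235 FPKM against 3.60 ± 0.376 FPKM in macrophages (log2 difference 0.73, adjusted p 3.4e-07). Gbp2b, which ends 1422 bases before Gbp2 begins, had 0 to 7 reads in each library and did not pass the filter, whereas Gbp2 reached 436 FPKM.

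Most genes of the interferon pathway, which lies upstream of these GTPases, were also lower in LPS-treated osteoclasts than in LPS-treated macrophages. Of 21 listed genes 19 were tested: 18 rose with LPS in macrophages (median 2.18) and 13 in osteoclasts (median 0.83), and 18 were lower in the osteoclasts after LPS, with 17 interactions called below 0. The shares over all genes tested were 36.8%, 11.1%, 43% and 30% in these comparisons. Ifnb1, the gene for interferon beta, had 0 reads in all 6 untreated libraries. With LPS it reached 54.0, 72.6 and 54.1 FPKM in macrophages and 0.539, 0.865 and 0.950 FPKM in osteoclasts, from 8, 10 and 13 reads, so these groups were far apart. Ifnar1 and Ifnar2, the chains of its receptor, rose by 1.04 and 1.07 in macrophages, and in osteoclasts their log2 differences were -0.10 and 0.13 and were not called. Both were already lower in untreated osteoclasts, by log2 differences of -1.31 and -1.23.

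The transcription factors of the pathway did not all follow 1 pattern. Irf1, which binds the ISRE, was at 375 ± 5.12 FPKM after LPS in macrophages and 20.6 ± 3.83 FPKM after LPS in osteoclasts, log2 differences by LPS of 5.52 and 2.57. Stat2 rose by 2.93 and 1.26. Irf9, its partner on the ISRE, rose by 1.71 and 1.54, and its interaction of -0.17 was not called. Irf8, a myeloid factor, rose by 2.02 in macrophages and was at 1.08 ± 0.0753 FPKM in untreated and 0.745 ± 0.236 FPKM in LPS-treated osteoclasts (log2 difference -0.26, not called). Socs1, an inhibitor of JAK signalling, rose by 7.32 and 2.33.

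A list of 7 inflammasome and pyroptosis genes held Casp4, Casp1, Gsdmd, Nlrp3, Pycard, Ninj1 and Aim2, a sensor of cytosolic DNA. LPS raised 7 of 7 in macrophages (median 2.35) and 4 of 7 in osteoclasts (median 0.31), beside 36.8% and 11.1% of all genes. Casp4, which encodes caspase-11, had the same order of groups as Gbp7: it was at 2.56 ± 0.254 FPKM in untreated macrophages, 52.0 ± 5.75 with LPS, 7.87 ± 0.350 in untreated osteoclasts and 13.9 ± 1.79 with LPS. In untreated osteoclasts 2 of the 7 were higher than in untreated macrophages and 5 were lower, beside 38.8% and 39% of all genes. The higher pair were Casp4 (log2 difference 1.32) and Gsdmd, the pore-forming target of caspase-11 (0.89), whose LPS effect in osteoclasts, 0.13, was not called. The lower genes were Nlrp3 (-3.71), Pycard (-1.60), Ninj1 (-1.20), Casp1 (-0.55) and Aim2 (-0.25). Nlrp3, the inflammasome sensor, rose by 2.98 in macrophages and 3.39 in osteoclasts, and its interaction of 0.41 was not called, unlike those of the other 6.

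Genes of ATG8 conjugation and of prenylation were tallied in the same way. Of 12 genes of ATG8 conjugation, the autophagy system that guides these GTPases to pathogen vacuoles, 6 were called higher and 3 lower with LPS in macrophages (median 0.17), against backgrounds of 36.8% and 33.1%, and 1 of 12 was called in osteoclasts, where 17.7% of all genes were called in either direction. This was Sqstm1, an autophagy receptor, which rose by a log2 difference of 2.53 in macrophages and of 1.22 in osteoclasts. In untreated osteoclasts 7 of the 12 were higher and 1 lower, beside 38.8% and 39% of all genes, with Map1lc3a at 75.4 ± 9.37 FPKM against 11.3 ± 0.761 FPKM in macrophages. Gbp2 and Gbp5 carry a prenyl lipid anchor, and 10 genes of protein prenylation at large were listed: subunits of the transferases that act on CAAX proteins (Fnta, Fntb, Pggt1b) or on Rab proteins (Rabggta, Rabggtb), enzymes that process CAAX proteins afterwards (Rce1, Icmt, Zmpste24) and enzymes that make the lipid (Fdps, Ggps1). Of these 10, 2 were higher and 5 lower with LPS in macrophages (median -0.19). In osteoclasts 0 of the 10 were called with limma (median 0.00), 0 had an unadjusted p under 0.05 and voom called 0 (1 at an unadjusted p under 0.05), beside 17.7% of all genes called, and their log2 differences ran from -0.11 for Rce1 to 0.14 for Rabggtb.

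The members resembled one another across the 12 libraries. The Pearson correlation of each member's log2(FPKM + 1) with the mean of the other 9 ran from 0.910 for Gbp7 and 0.942 for Gbp9 to 0.995 for Irgm1, a description over 12 libraries that fall into 4 groups. Outside the members, the 6 tested genes with the highest correlation to the members' mean were Socs3 (0.999), Mx2 (0.999), Samd9l (0.998), Ifit3b (0.998), Tgtp2 (0.997) and Calhm6 (0.997). Mx2 and Ifit3b belong to interferon-induced antiviral families. Socs3, a feedback inhibitor of cytokine signalling, reached 886 ± 19.0 FPKM after LPS in macrophages and 13.5 ± 4.79 FPKM after LPS in osteoclasts.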

How the data were processed

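The authors deposited FPKM values for 54532 Ensembl genes in 12 libraries. The submitters' processing notes name fastp, STAR, featureCounts, DESeq2 and build mm10, with no versions or roles. Annotation, strand use and the FPKM denominator are not given in the sources used here. For 25743 of the 25854 genes above 0 (99.6%), values were whole multiples of a step, within 0.02 of a read, and reads were recovered from these steps. Step lengths matched merged exons of GENCODE M21 for 96.7%. For Iigp1 they gave 3121 bases, so its reads rest on that length, and its FPKM on the length the authors used.

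Groups were taken from the titles. Genes reaching 1 FPKM in 3 or more libraries went into limma 3.58.1 (R 4.3.3) as log2(FPKM + 1), with 4 group means fitted to the 12 libraries together and a variance trend in eBayes. Each gene had 1 estimate of spread for the 4 groups, so its LPS effects have equal SEs in both cell types. The members varied more between LPS-treated osteoclast than LPS-treated macrophage libraries, so their osteoclast SEs may be too small. The 5 two-sided comparisons were adjusted by Benjamini-Hochberg over all 11335 genes and called at an adjusted p under 0.05. The scale understates changes of low genes. The fit was tested on simulated data. Alternatives were a pseudocount of 0.1, no filter, TPM, quantile normalization, only the groups compared, a replicate block, voom on recovered reads and each library left out. All members were named. Members, 5 pathway lists and 7 marker lists were chosen with earlier results of these data known. Genes named besides them come from those lists, or are the 6 most correlated with the members. Motifs were searched with Python 3.11.15. Counting intervals and the limit of a 0 count cover counting error only. The promoters of Gbp9 and Iigp1 are not used here.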

Additional observations from a re-analysis of the deposited data

Results flagged for a closer look

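For each of the 10 members the LPS effect differed between osteoclasts and macrophages by the interaction test of limma (log2 difference in osteoclasts minus that in macrophages, on log2(FPKM + 1), 3 libraries a group). All 10 values were below 0. They were -5.23 for Iigp1, -4.51 for Gbp5, -3.77 for Gbp3, -3.70 for Gbp7, -3.20 for Gbp2, -2.68 for Gbp9, -2.59 for Irgm1, -2.32 for Igtp, -2.21 for Ifi47 and -2.06 for Irgm2. With voom on the recovered reads, the differences of Gbp2 (adjusted p 0.102), Gbp9 (0.103) and Iigp1 (0.168) were not called, and as a log2 ratio of mean FPKM the Iigp1 value was -2.02. On log2(FPKM + 1), the adjusted p ran from 2.45e-09 for Iigp1 to 4.26e-06 for Igtp. In each case both LPS effects were above 0, so the genes differed in the size of the rise and not in its direction.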

How the results depend on the processing

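The counts of members called kept within 1.5 times of those reported in all 5 comparisons under every alternative run. For single members, 190 of 190 values kept their direction and call in each LPS effect and in the comparison of the cell types with LPS. In the interaction 177 values did, and 3 (Gbp2, Gbp9 and Iigp1, all with voom) lost the call. Without LPS 184 did, 5 gained a call (Iigp1 and Gbp3), and Gbp3 turned from -0.15 to 0.0859 under quantile normalization (adjusted p 0.611). Leaving out 1 library changed no count: it stayed at 10 members called in both LPS effects, the comparison with LPS and the interaction, and at 7 without LPS. With the replicate block the same counts, 10, 10, 7, 10 and 10, were found, and over all genes it called 7914 for LPS in macrophages and 1930 in osteoclasts, against 7921 and 2008. Whether the replicate numbers pair the libraries cannot be told. The 18 same-numbered pairs correlated at -0.07 to 0.10, and the 36 different-numbered pairs, at -0.14 to 0.11, overlapped them. Voom called 7948 and 2410 genes. Few reads limit Iigp1, Gbp2 and Gbp9 in untreated osteoclasts, with 0 to 28 reads a library.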
